A study of Homo sapiens with 4 samples.

Results

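Caspase-3 inhibited and caspase-3 efficient xenograft tumours were compared after docetaxel, over the mouse loci at the starts of 11 chromosomes. The tumours grew from cells of the triple-negative human breast cancer line MDA-MB-231 under the skin of Balb/c nude mice. Inhibition was applied to the cells in culture with Z-DEVD-FMK, a peptide inhibitor of caspase-3, and docetaxel was given at 15 mg/kg when tumours measured 12 mm². The comparison rests on 1 library of each kind, with 1 untreated library of each kind beside it, so no value below carries a replicate error or a p-value. Every difference describes these libraries, and how many animals or tumours each one came from is not stated in the labels.

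Loci were taken when they ended below 7.2 Mb on chromosome 1, 18.1 on 4, 7.0 on 6, 18.8 on 8, 8.0 on 9, 6.7 on 10, 34.6 on 11, 4.3 on 12, 9.8 on 13, 3.6 on 15 or 5.9 on 19 (mouse build mm9). These windows hold 662 of the 23698 loci in the tables, and 661 had the status OK in both docetaxel libraries. Of those, 203 were listed at 0 in both, 153 had values but stayed under 5 FPKM in both, and 305 reached 5 FPKM in at least 1 library. FPKM counts sequenced fragments relative to transcript length and library size, and a locus that reached this level is called measured here. Of the last 5 loci inside each window (53 in all, since the window on chromosome 15 holds 3), 37 were above 0 in a docetaxel library, against 21 of the first 55 beyond them. Outside the windows 20036 of the 22752 loci with status OK in both docetaxel libraries were listed at 0 in both.

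Caspase-3 is the protease that carries out much of the dismantling of a dying cell, and docetaxel kills dividing cells by freezing their microtubules. In a xenograft the tumour cells are human, while vessels, fibroblasts, white blood cells and neighbouring fat belong to the mouse. Values on mouse loci can come from the host tissue and from human RNA that matched mouse sequence. No recorded step separated the 2 species, and the share of each was not measured. The inhibitor acts on the enzyme, so RNA levels do not check the label. In bulk RNA, fewer cells of a type and less RNA per cell cannot be told apart.

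A locus was called higher or lower when log2(FPKM + 1) differed by at least 1, its deposited intervals (taken as 95%) did not overlap and it was measured. In the inhibited library 40 of the 305 measured window loci were lower (13.1%) and 3 were higher (0.984%). Over all 701 measured loci of the tables the shares were 9.27% lower and 3.99% higher, and outside the windows both were 6.31%. The lower loci include members of a wide fat and lipid list such as Pcx, Ghr and Retn, alpha globin, Cd209 lectins, aldo-keto reductases and the macrophage elastase gene Mmp12. The 3 higher loci are Igfbp3, Rbm4 and Rbm14. The remaining 262 measured loci did not pass, and 216 of the 305 lay within 2-fold.

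The lower calls depend in part on zeros. Of the 40, 17 had a listed 0 in the inhibited library. Their status was OK, so none was flagged as a failed estimate, but no level is read from a listed 0. Among the 282 loci above 0 in both libraries, 23 were lower (8.16%) and 3 higher (1.06%), against 4.71% and 4.08% of all 637 such loci in the tables and 1.97% and 6.48% of those outside the windows. A locus was listed at 0 in the inhibited library alone 21 times and in the efficient library alone 2 times. For 17 of those 21 the deposited interval also ran from 0 to 0, so that any lower bound above 0 in the efficient library met the interval criterion.

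Precision differed between the libraries. Over the 221 window loci at 5 FPKM or more in both, the median half-width of the deposited interval was 35.9% of the FPKM in the efficient and 52.4% in the inhibited library. Per unit of FPKM the squared interval width was 1.81 times as large in the inhibited library, which is the less deep of the pair on this measure. At 5 to 10 FPKM the median half-widths were 54.1% and 70.8%, and at 50 FPKM or more they were 21.1% and 27.0%. Read or fragment totals were not used here, and the part of depth in the excess of lower calls was not tested. The median difference of the measured window loci was -0.26 on the log2(FPKM + 1) scale (quartiles -0.83 and 0.19), against -0.05 over all measured loci and 0.14 outside the windows.

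**Figure D1:**
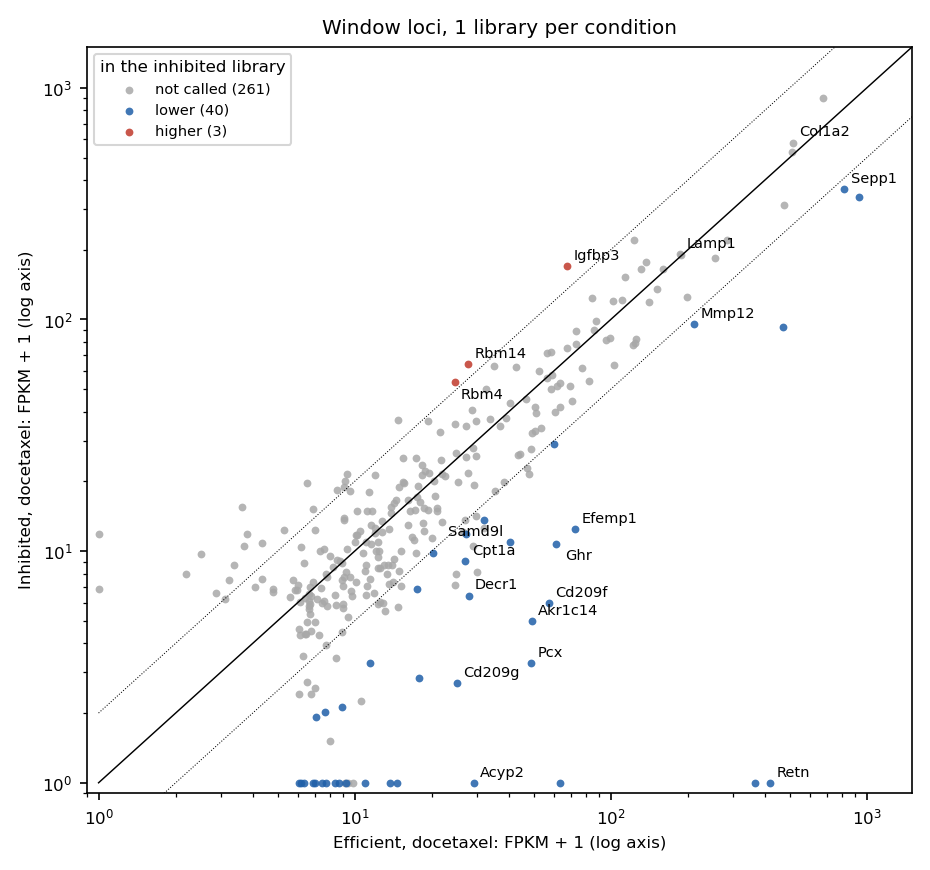
FPKM + 1 of measured window loci spanning 500 bp or more in the efficient (x) and inhibited (y) docetaxel library, both axes logarithmic, with lines of equality and of 2-fold difference. Most of the coloured points lie under the lower line (40 lower against 3 higher), and the row at the bottom holds loci listed at 0 in the inhibited library.

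The list for fat tissue, lipid oxidation and peroxisomes held the largest share of lower calls among lists with at least 5 measured members. It was drawn widely: Pcx, Ghr, Idi1 and Sepp1 are not particular to these functions, and Sepp1 is also on the detoxification list. Fat cells secrete hormones and, like liver and muscle, burn fatty acids in mitochondria and peroxisomes. Of 16 listed genes 13 lie in the windows and 9 were measured, of which 8 were lower and 0 higher, where 13.1% of all measured window loci were lower and 0.984% higher. Their median difference was -2.12, the value of Decr1, beside -0.26 for all measured window loci. In the untreated pair, which shares no library with the docetaxel pair, 0 of 6 measured members passed and the median was -0.26. The list was drawn up with earlier results of these data known, so its count is not independent evidence of a direction.

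Pcx, the gene of pyruvate carboxylase, which feeds carbon into the citric acid cycle (chromosome 19, 4510472 to 4621752), was at 48.0 FPKM (interval 39.1 to 56.8) in the efficient and 2.28 (0 to 5.33) in the inhibited docetaxel library. Its untreated values were 2.54 efficient and 1.71 inhibited. The efficient docetaxel library thus stood alone, 21.0 times the inhibited value and 7.34 times at the nearest bounds. Lrfn4 lies inside the Pcx span and was at 3.34 and 6.60 FPKM, the other way round.

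Ghr, the growth hormone receptor gene (chromosome 15, 3267760 to 3533230), was at 60.3 FPKM (41.4 to 79.2) efficient and 9.78 (3.01 to 22.6) inhibited with docetaxel. Untreated, it was at 4.30 and 11.1. Decr1, which encodes a mitochondrial reductase needed to oxidise unsaturated fatty acids (chromosome 4, 15844387 to 15872654), was at 26.9 (19.1 to 34.7) and 5.42 (1.01 to 9.09), with untreated values of 5.06 and 6.49. For both genes the 3 other libraries had overlapping intervals below that of the efficient docetaxel library. Cpt1a, the gatekeeper of fatty acid entry into mitochondria (chromosome 19, 3323301 to 3385733), was at 26.1 (19.7 to 32.2) and 8.02 (3.47 to 12.5). Its untreated values, 14.1 and 6.002, were in the same order, and their intervals (9.26 to 18.5 and 2.60 to 9.36) just overlapped.

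Sepp1, the gene of the selenium carrier selenoprotein P (chromosome 15, 3220767 to 3230508), had the narrowest interval relative to its level among the called loci in each docetaxel library. It was at 816 FPKM (756 to 876) efficient and 363 (312 to 414) inhibited with docetaxel, and at 401 and 254.5 untreated. The inhibited library was the lower of the pair with and without docetaxel. The untreated intervals were apart (356 to 446 efficient, 217 to 292.5 inhibited), but the untreated difference of -0.65 was under 2-fold and did not pass. The docetaxel call was also lost under quantile normalization. Idi1, an enzyme gene of isoprenoid and cholesterol synthesis (chromosome 13, 8884852 to 8891642), was at 7.96 (4.15 to 11.4) against 1.12 (0 to 3.13).

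Retn, the resistin gene (chromosome 8, 3655770 to 3659818), was at 417 FPKM (333 to 502) efficient and listed at 0 inhibited with docetaxel, as it was in the untreated inhibited library, and at 10.5 (0 to 33.6) untreated efficient. Pex11c, a peroxisome division gene, was at 13.6 (5.28 to 21.1) in the efficient docetaxel library and listed at 0 in the other 3. Against a listed 0 neither gives a fold. Pdp1, a phosphatase gene that switches on pyruvate dehydrogenase, was the measured member that did not pass (8.01 against 6.06). Insr, Irs2, Pdk4 and Idi2 were under 5 FPKM in both. Of 12 adipocyte markers, summed levels were 429 FPKM efficient and 12.4 inhibited, nearly all of the first from Retn. Cidea, a marker outside the windows, was at 9.76 and 12.4, while Adipoq, Fabp4, Plin1, Cfd and 5 others were listed at 0 in both and also lie outside. The part of fat content in these values was not tested.

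**Figure D2:**
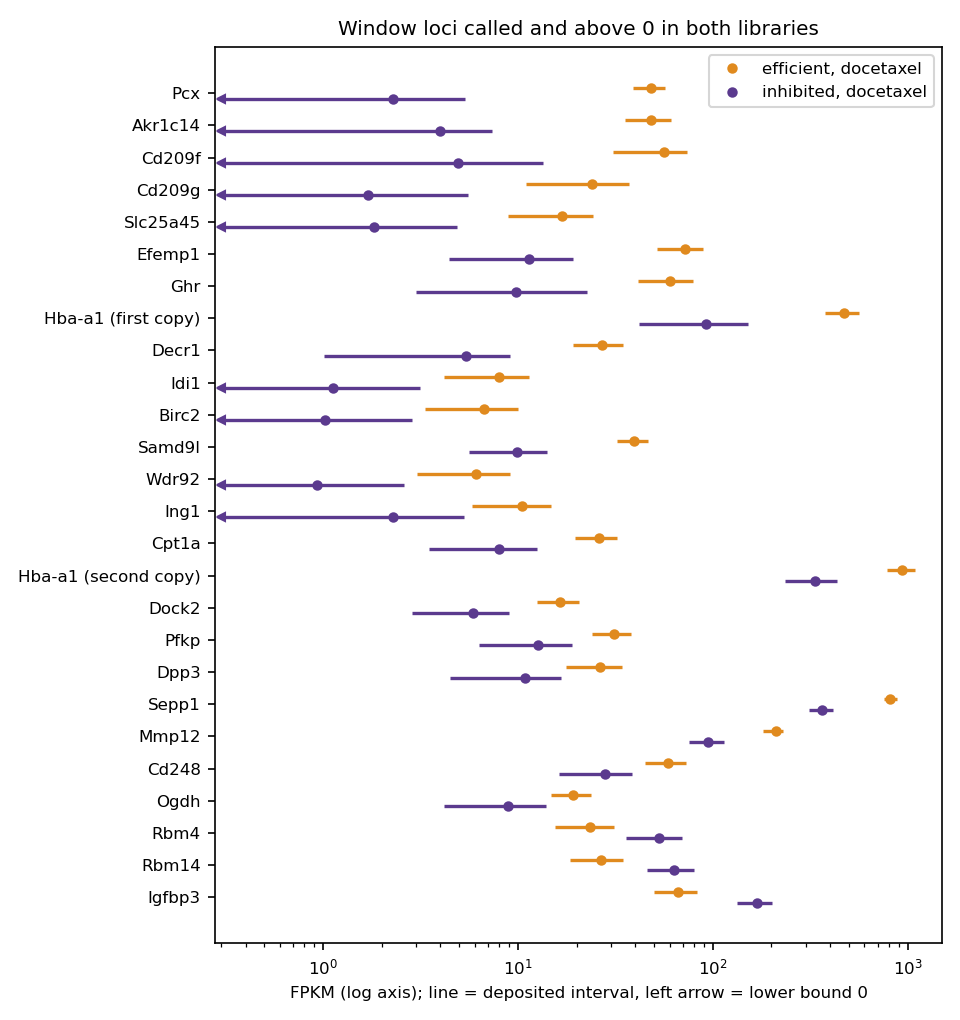
FPKM on a logarithmic axis with deposited intervals for the 26 called window loci above 0 in both docetaxel libraries, orange for efficient and purple for inhibited. The intervals of Pcx lie farthest apart relative to their bounds, those of Ogdh and Dpp3 almost touch, and Igfbp3, Rbm4 and Rbm14 at the foot are the loci with the inhibited library on the right.

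Alpha globin, the oxygen carrier of red cells, was lower in the inhibited docetaxel library at each of its 3 measured entries. Of all measured window loci 13.1% were lower. The 3 entries occupy 2 positions on chromosome 11 and include overlapping copies, so they are not separate draws. The Hba-a1 entry at 32183672 to 32184486 was at 469 FPKM (376 to 562) efficient and 92.2 (41.9 to 151) inhibited. At 32196489 to 32197303, the other Hba-a1 entry was at 933 (781 to 1090) and 335 (235 to 436), a call lost under quantile normalization. Untreated, the order was the opposite at both: 67.1 efficient against 163 inhibited at the first, and 140 against 772 at the second, where the untreated call was higher. An Hba-a2 entry almost on top of the second was at 364 (254 to 475) efficient and listed at 0 inhibited, and the way reads were divided between such copies was not given. Summed erythroid markers were at 1767 FPKM efficient and 427 inhibited, carried by these alpha globin entries. Alas2 and beta globin were listed at 0 in both, but they lie outside the windows, where most loci had no value. The amount of blood in the tumours was not measured here.

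Cd209 lectins are sugar-binding receptors of macrophages and dendritic cells. Cd209f (chromosome 8, 4102793 to 4105764) was at 56.2 FPKM (30.9 to 73.8) efficient and 4.94 (0 to 13.5) inhibited with docetaxel, and at 9.89 and 12.3 untreated. Cd209g (chromosome 8, 4134736 to 4137707) was at 24.03 (11.0 to 37.0) against 1.69 (0 to 5.51), with untreated values of 5.64 and 2.53. Both were thus high in 1 library of the 4, although for Cd209g the interval of that library just reached that of the untreated efficient one (0 to 11.0). Cd209a was at 6.02 and listed at 0. Cd209d (12.1 and 4.52) and Cd209b (8.84, and listed at 0 inhibited) did not pass. The family members resemble each other in sequence, so reads could be split between them.

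The combined list of lectins and myeloid signalling genes had 14 measured members, of which 4 were lower, 3 of these being Cd209 genes. Of all measured window loci 13.1% were lower. The list median was -0.63. Dock2, an activator of Rac that white blood cells use to migrate (chromosome 11, 34126864 to 34597325), was at 16.5 FPKM (12.5 to 20.6) against 5.89 (2.85 to 9.02), a call lost with a pseudocount of 5. Fam196b lies within its span. Lyn, a Src family kinase gene, was at 76.4 and 60.9, Plek at 59.6 and 38.9 and Lcp2 at 28.8 and 24.7, with overlapping intervals for Lyn and Lcp2 and almost touching ones for Plek (48.8 to 70.1 and 28.3 to 49.4). For Unc93b1, a chaperone of endosomal Toll-like receptors, the intervals were apart (172 to 222 against 96.1 to 152) but the difference of -0.66 was under 2-fold. The summed level of the 10 macrophage markers was 211 FPKM efficient and 95.4 inhibited, nearly all of it from Mmp12, the 1 marker inside the windows. Cd68, Csf1r and Cd14 were listed at 0 in both.

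Mmp12, the macrophage elastase gene (chromosome 9, 7347374 to 7360461), was at 210 FPKM (181 to 230) efficient and 94.8 (75.4 to 114) inhibited with docetaxel, and at 87.8 and 55.2 untreated. Within each treatment the inhibited library was the lower. The untreated intervals were apart (71.8 to 103 efficient, 42.8 to 67.0 inhibited) at a difference of -0.66, under 2-fold. The docetaxel call was lost when libraries were scaled to the median of the windows. The neighbouring stromelysin and collagenase genes did not pass with docetaxel: Mmp3 was at 86.3 and 97.3, and Mmp13 at 62.5 and 52.0, with overlapping intervals. Untreated, both were called, in opposite directions. Mmp3 was at 44.3 efficient and 18.2 inhibited, called lower, and Mmp13 at 17.7 and 37.1, called higher. Mmp27 was at 7.402 (2.69 to 11.7) and listed at 0. Of the 11 metalloprotease genes in the windows 4 were measured, and their median difference was -0.70.

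Aldo-keto reductases reduce steroid and lipid carbonyls, and a cluster of them lies on chromosome 13. Akr1c14 (4058837 to 4089668) was at 48.1 FPKM (35.3 to 60.8) efficient and 3.997 (0 to 7.33) inhibited with docetaxel. Untreated, it was at 7.99 (3.26 to 12.2) and listed at 0, also called lower. Akr1c18 (6.45) and Akr1e1 (5.08) were listed at 0 inhibited, whereas Akr1c13 was at 14.4 (6.04 to 21.7) and 18.9 (4.85 to 31.5) and did not pass. Of the 4 measured members 3 were lower, where 13.1% of all measured window loci were, and the 4 did not share a direction. As neighbours they were not independent draws. The 5 others of the windows were under 5 FPKM or at 0. In the wider list of glutathione, selenium and detoxification genes, Sepp1 alone of 8 passed, a share near the 13.1% lower of all measured window loci. The list median was -0.91. Gstp1 was at 52.6 and 33.1, Aldh3b1 at 31.0 (19.5 to 42.2) and 11.6 (3.26 to 19.6), and Pon2 and Pon3 within 2-fold. Aldh3b1 missed by a small overlap and passed when libraries were scaled to the median of all loci.

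Stromal genes were called in both directions. Igfbp3, which encodes the main carrier of insulin-like growth factors in blood (chromosome 11, 7106096 to 7113926), was at 168 FPKM (132 to 202) inhibited and 66.5 (49.99 to 82.9) efficient with docetaxel. Its untreated values were 63.0 inhibited and 69.4 efficient, so the inhibited docetaxel library stood alone above 3 libraries that overlapped each other. The inhibited value was 2.53 times the efficient one. Efemp1, the gene of a fibulin of the extracellular matrix (chromosome 11, 28753205 to 28826743), went the other way, at 11.4 (4.40 to 19.1) inhibited and 71.6 (51.9 to 89.1) efficient, with 18.3 and 27.2 untreated. Pdgfd, a platelet-derived growth factor gene, was at 6.74 efficient and listed at 0 inhibited.

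The remaining stromal members lay within 2-fold. Col1a2, which encodes type I collagen, was at 579 FPKM (527 to 624) inhibited and 515 (470 to 532) efficient, and Efemp2 at 70.7 and 55.1. Sdcbp, the syntenin gene, had intervals apart (151 to 215 inhibited, 228 to 282 efficient) at a difference of -0.48. The list held 9 measured members, 1 higher and 2 lower, with a median of 0.17. Of all measured window loci 0.984% were higher and 13.1% lower. Fibroblast markers summed to 515 FPKM efficient and 579 inhibited, nearly all of it Col1a2. Col3a1, Dcn, Lum and Sparc were listed at 0 in both, but they lie outside the windows.

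Of 7 measured vessel genes 1 was lower, a share near the 13.1% of all measured window loci. Cd248, endosialin of pericytes and fibroblasts (chromosome 19, 5068078 to 5070639), was at 27.9 FPKM (16.3 to 38.5) inhibited and 59.2 (44.7 to 73.2) efficient. It was at 36.0 and 49.8 untreated, and its docetaxel call was lost with a pseudocount of 5, window scaling or quantile normalization. Among the basement membrane collagens, Col4a1 was at 48.9 (39.8 to 58.3) inhibited and 31.5 (26.1 to 36.9) efficient, apart but under 2-fold, while Col4a2 was at 20.2 and 21.4. Gas6, a ligand of TAM receptors, was at 31.2 and 48.2, and Angpt2, an antagonist of Tie2, at 3.94 and 6.01. None of the 10 endothelial markers was measured, and none lies in the windows.

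Of 7 measured apoptosis genes 1 was lower, again a share near that of all measured window loci. Birc2, which encodes the ubiquitin ligase cIAP1 (chromosome 9, 7818226 to 7835255), was at 1.02 FPKM (0 to 2.85) inhibited and 6.69 (3.32 to 9.95) efficient with docetaxel, and at 1.52 and 1.36 untreated. The call was lost with a pseudocount of 5. The other 6 measured members did not pass, although each had the smaller value in the inhibited library. For Ripk2 (5.28 against 5.40) the difference was only -0.03. The list median was -0.82, beside -0.26 for all measured window loci. The inflammatory caspase genes Casp1 (41.0 against 62.4), Casp4 (26.7 against 47.8) and Casp12 (6.22 against 12.6) had overlapping intervals. Trp53inp1, a p53 target, was at 1.73 against 5.495. Birc3, next to Birc2, was at 2.90 efficient and listed at 0 inhibited, under the measured level.

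Rbm4 and Rbm14 encode RNA-binding proteins that act in splicing and transcription, and they lie side by side on chromosome 19. Rbm4 (4784293 to 4793877) was at 52.7 FPKM (35.8 to 69.3) inhibited and 23.6 (15.5 to 31.1) efficient with docetaxel, and at 66.6 (49.3 to 83.9) and 30.1 (20.03 to 40.05) untreated. It was called higher in both pairs. Rbm14 (4800925 to 4811634) was at 63.05 (45.7 to 79.8) against 26.7 (18.5 to 34.4), and at 66.1 and 40.5 untreated. The untreated intervals of Rbm14 (50.2 to 81.2 and 29.1 to 51.8) overlapped slightly, so that pair was not called. For both genes each inhibited library had a higher value than each efficient one.

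The paralog Rbm4b, at 9.185 against 6.59, did not pass. Of 17 measured RNA-binding and splicing genes, Rbm4 and Rbm14 were the 2 called, both higher, where 3 of all 305 measured window loci were higher (0.984%). Those 3 include these 2 neighbours, so the window share is no independent background. Of all measured loci 3.99% were higher, and of those outside the windows 6.31%. The list was drawn up with earlier results of these data known, so its count is not independent evidence. The list median was 0.13. Xpo1, the nuclear export receptor gene, was at 62.3 (50.1 to 74.9) against 33.9 (27.2 to 40.5), apart at a difference of 0.86, and passed after window scaling. The 2 long noncoding RNAs of nuclear bodies, Malat1 (81.5 against 125) and Neat1 (62.3 against 102), also had intervals apart without reaching 2-fold, but in the other direction. Their direction was the same untreated. There Neat1 was at 31.6 inhibited against 71.0 efficient and called lower, and Malat1 at 49.8 against 92.8, apart but under 2-fold.

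**Figure D3:**
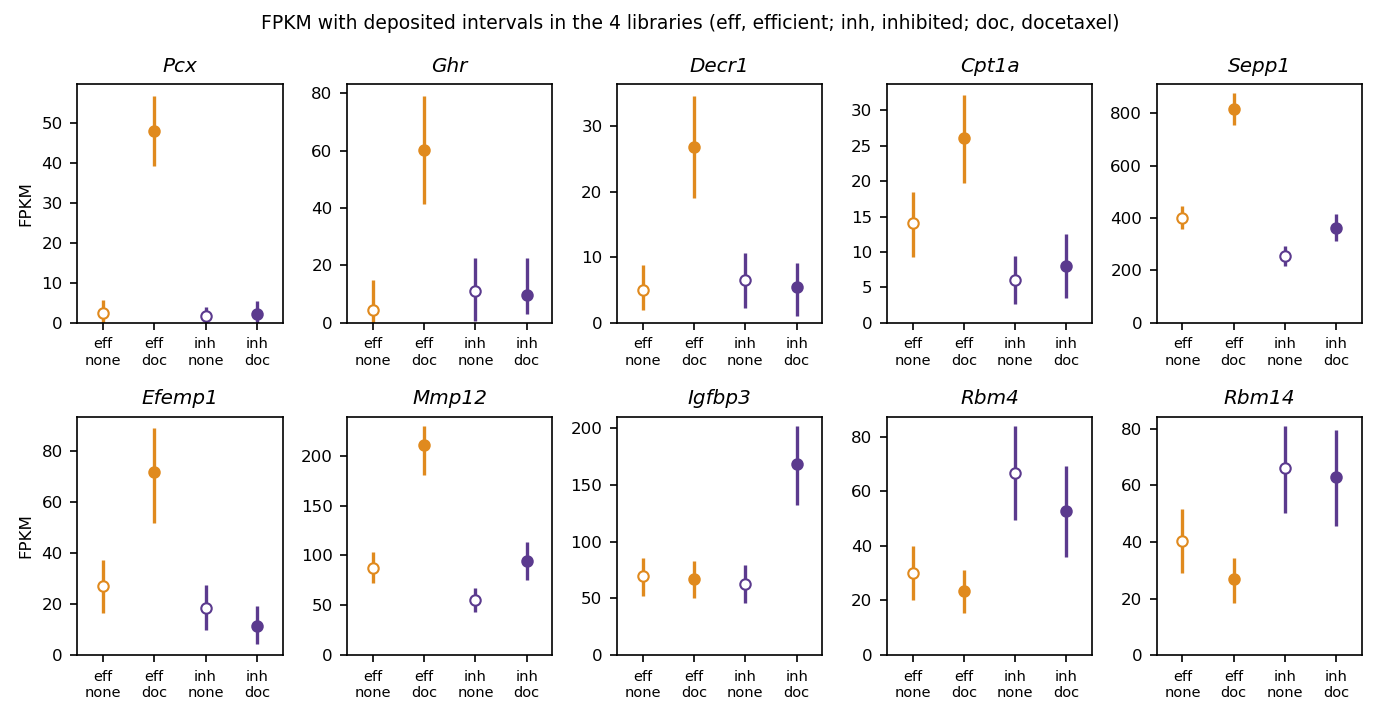
FPKM with deposited intervals of 10 called genes in the 4 libraries, orange for efficient, purple for inhibited, filled for docetaxel, each panel with its own axis from 0. Pcx, Ghr, Decr1, Efemp1 and Mmp12 are high in the efficient docetaxel library, Igfbp3 in the inhibited docetaxel library, and Rbm4 and Rbm14 in both inhibited libraries.

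Among the 23 lower loci above 0 in both libraries, the efficient docetaxel library was the highest of the 4 in 22, Ing1 being the exception, and in 12 its interval lay above all 3 others. The inhibited docetaxel interval overlapped the untreated inhibited one in 19 of the 23. The loci were chosen for a high efficient docetaxel value relative to the inhibited one, which favours both counts on the efficient docetaxel library. None of these counts was made over all measured window loci, so they have no background share beside them. In the untreated pair, where 19 of the 23 were measured, 13 of the 23 were lower in the inhibited library and 10 higher. Of all 305 window loci measured with docetaxel, 177 were lower and 121 higher untreated, so the 13 and 10 do not set the called loci apart. With zeros included, 23 of the 40 lower loci were measured in the untreated pair, and the others could not be called there. Of these 23, 2 were also called lower untreated, Akr1c14 and Acyp2. In that pair 9 of 261 measured window loci were lower (3.45%), against 3.35% of all measured loci and 3.27% outside the windows. Of the 3 higher loci 1, Rbm4, was also called higher untreated, where 6 of 261 were (2.30%), against 2.51% and 2.68%. Acyp2, an acylphosphatase gene, was at 28.2 FPKM (8.87 to 46.6) efficient with docetaxel and 12.8 without, and listed at 0 in both inhibited libraries.

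Further genes of sugar metabolism and mitochondria were also lower. Pfkp, a phosphofructokinase of glycolysis (chromosome 13, 6579120 to 6647970), was at 12.6 FPKM (6.32 to 18.95) inhibited and 31.05 (23.9 to 38.2) efficient, with 11.2 and 14.7 untreated, and was the 1 of 6 measured sugar metabolism genes to pass, a share near the 13.1% of all measured window loci. Ogdh, which encodes a subunit of the 2-oxoglutarate dehydrogenase of the citric acid cycle (chromosome 11, 6191600 to 6259097), was at 8.85 (4.19 to 13.96) and 19.2 (14.7 to 23.6), a call lost with a pseudocount of 5 or window scaling. Slc25a45, a mitochondrial carrier gene (chromosome 19, 5878466 to 5885768), was at 1.83 (0 to 4.89) and 16.9 (8.93 to 24.3), while its untreated values of 12.3 and 11.0 were alike.

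Of 9 measured genes of the respiratory chain and mitochondrial translation 0 passed, which with 13.1% of measured window loci lower is too few genes to set the list apart, and the median was 0.16. Ndufs8, a complex I subunit gene, was at 74.6 inhibited and 66.7 efficient, and Mrpl11 at 15.6 and 13.6. Ndufv1, another complex I gene, was at 21.8 (9.50 to 32.3) and 46.1 (29.3 to 62.5), over 2-fold apart but with overlapping intervals. Timm44 was at 18.9 and 24.3.

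Several further loci outside the large groups were lower. Samd9l, an interferon-inducible gene (chromosome 6, 3322257 to 3349571), was at 9.91 FPKM (5.61 to 14.02) inhibited and 39.5 (32.4 to 46.6) efficient, with 13.1 and 23.7 untreated. Ing1, the gene of a chromatin reader (chromosome 8, 11556066 to 11563250), was at 2.29 (0 to 5.31) and 10.4 (5.82 to 14.8), but at 12.0 and 5.34 untreated, and its docetaxel call was lost under window scaling. Dpp3, a dipeptidyl peptidase gene (chromosome 19, 4907229 to 4928287), was at 10.8 (4.45 to 16.7) and 26.3 (17.7 to 34.4), a call lost with a pseudocount of 5 or window scaling. Wdr92 (chromosome 11, 17111896 to 17135203) was at 0.925 (0 to 2.61) and 6.08 (3.04 to 9.10), lost with a pseudocount of 5.

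Against a listed 0 in the inhibited library, the rule also named the enkephalin precursor gene Penk (12.8 FPKM efficient), Net1 (8.22), the stanniocalcin gene Stc2 (7.71), Snapc2 (5.88), Sfi1 (5.34) and Mtfp1 (5.19). Pex11c, Penk, Net1 and these others were at 13.6 FPKM or below, where the half-widths of the efficient intervals are between 47.9% and 75.2% of the value. Sfi1 was listed at 0 with an upper bound of 1.56, and shares bases with 2 pseudogene entries.

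Most other lists held no call or 1, and with 13.1% of measured window loci lower such counts set no list apart. In the lists for membrane traffic (14 measured), lysosome (7), cytosolic translation (7), growth factor signalling (14), cell cycle and DNA repair (7) and endoplasmic reticulum stress (6), 0 loci passed in either direction. Their medians were -0.02, 0.03, -0.32, -0.15, -0.03 and -0.48. The sign turned for membrane traffic and cell cycle under window scaling (0.14 and 0.11) and quantile normalization (0.02 and 0.11), and for the lysosome under scaling to all loci (-0.01). Lamp1, the main lysosomal membrane protein gene, was at 191 FPKM inhibited and 186 efficient. Xbp1, a transcription factor of the unfolded protein response, was at 80.4 and 94.96, and the ribosome assembly gene Npm1 at 175 and 136. Rab1, a GTPase gene of transport from the endoplasmic reticulum, had intervals apart (178 to 255 against 98.0 to 143) at a difference of 0.84, and passed after quantile normalization.

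In 3 further lists a single locus was lower: Dpp3 of 15 chaperone and ubiquitin-proteasome genes (median -0.01, turning to 0.13 under window scaling and 0.03 under quantile normalization), Ing1 of 13 transcription and chromatin genes (0.11) and Net1 of 12 cytoskeletal genes (-0.24). Cct4, a chaperonin subunit gene for actin and tubulin folding, was at 120 inhibited and 109 efficient. Actr2 (61.1 to 94.5 against 104 to 140) and the spectrin gene Spnb2 (13.4 to 24.5 against 31.8 to 43.0) had lower intervals in the inhibited library at differences of -0.65 and -0.94. Cfl1, the cofilin gene, was at 901 and 673, but the efficient value exceeds its own deposited upper bound (623), being 1 of 6 such window loci in that library, with 2 in the inhibited one. By intervals alone, at any fold, 46 measured window loci were lower (15.1%) and 8 higher (2.62%), against 10.3% and 5.14% of all measured loci, and 6.57% and 7.07% of those outside the windows.

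**Figure D4:**
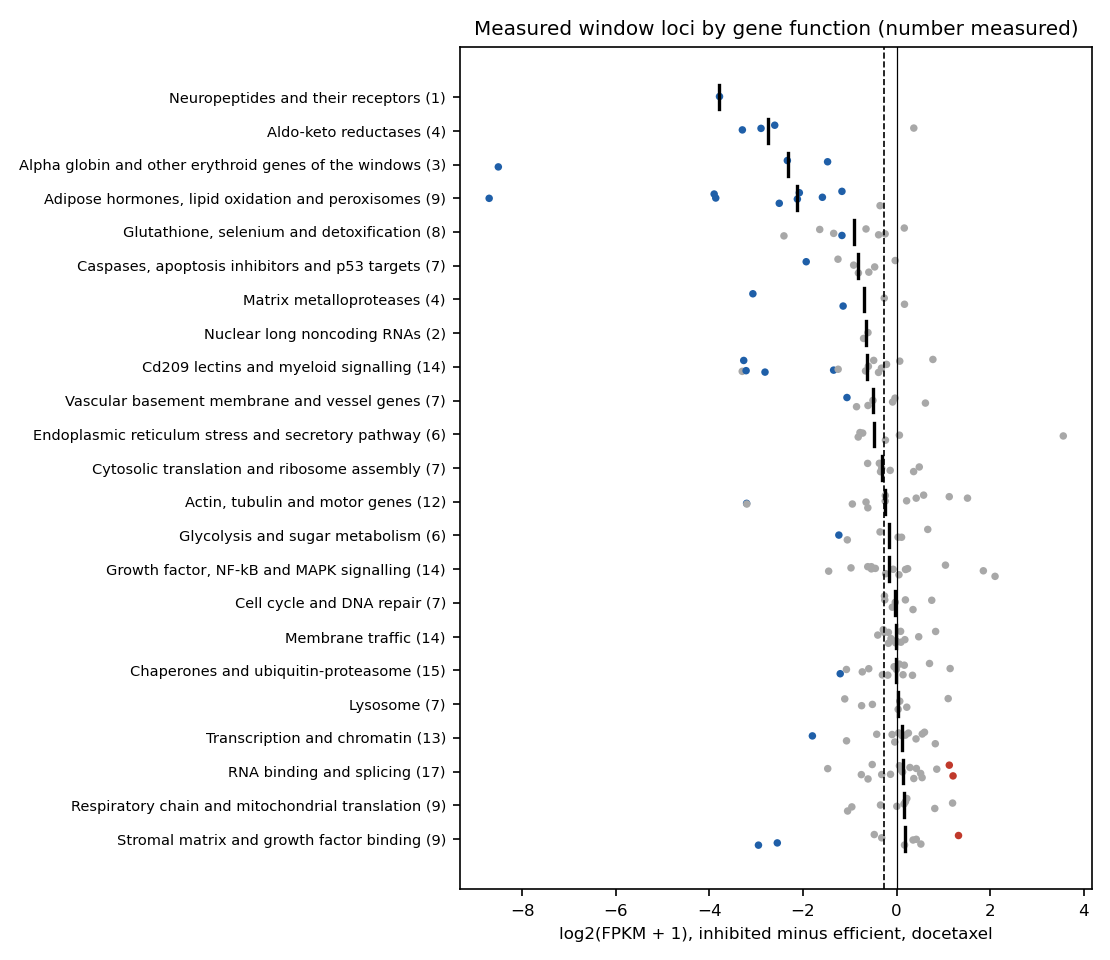
Differences in log2(FPKM + 1), inhibited minus efficient with docetaxel, of measured window loci in each gene list, with list medians as black bars, the window median as a dashed line, and lower and higher calls in blue and red (the place of points against a listed 0 depends on the pseudocount). Fat and lipid, aldo-keto reductase and alpha globin genes lie left of the dashed line with few exceptions, while most other lists straddle it.

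Calls were found in 8 of the 11 windows. On chromosome 15 both measured loci, Sepp1 and Ghr, were lower, on chromosome 13 it was 6 of 14, on chromosome 9 it was 4 of 14 and on chromosome 8 it was 8 of 41. The windows with the most measured loci held 11 lower and 1 higher of 111 on chromosome 11, and 6 lower and 2 higher of 74 on chromosome 19. Chromosome 4 had 2 lower of 26 and chromosome 6 had 1 of 12, while chromosomes 1, 10 and 12, with 6, 3 and 2 measured loci, had none. Over all 305 measured window loci 13.1% were lower and 0.984% higher, and over all 701 measured loci 9.27% and 3.99%. Neighbouring genes share a window, so loci within it were not independent draws. No window was tested against these shares.

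Markers of other tissues could hardly be read. The carcinoma markers Epcam, Krt8, Krt18, Krt19 and Cdh1 were listed at 0 in both libraries, Vim was at 16.5 FPKM inhibited and 16.9 efficient, Cldn4 was at 5.71 efficient and listed at 0 inhibited, and all of them lie outside the windows. None of the 10 lymphocyte, 7 skeletal muscle or 6 keratinocyte markers was measured. Pericyte markers summed to 30.1 FPKM inhibited and 63.6 efficient, nearly all from Cd248.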

How the data were processed

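Xenograft tumour RNA was sequenced as 4 libraries, 1 per group, and groups were taken from the sample titles. Per the submitters' processing notes, the authors used TopHat and Cufflinks with the mouse build mm9. No tool version was given. The deposited tables hold, per the file headers, each locus's FPKM, interval bounds and status. Read totals were not used here, so depth is described by interval width.

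Loci were matched by symbol and position, and starts raised by 1. Differences were computed as log2(FPKM + 1), with a pseudocount of 1, which understates differences of low genes. No test was made, since each group was 1 library. The call rule was tried on simulated libraries, with large changes planted in well expressed loci and counting noise alone. No change was planted in loci of low FPKM or listed at 0, and differences between animals were not simulated. Named were all called loci above 0 in both libraries, the 15 highest called against a listed 0, and up to 5 measured members per gene list by mean FPKM. Loci under 500 bp, short RNAs and clone names were left out, which removed 2 called loci. Other genes in the text were chosen after their values were seen. Members, lists and settings were chosen with earlier results of these data known.

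As alternatives, the pseudocount was set to 0.1 or 5 and the minimum to 1 FPKM, 20 FPKM or none; others were a 3-fold threshold, no interval criterion, median scaling on the windows or on all loci, quantile normalization, only loci above 0 in both libraries, and only loci of 500 bp or more. Leaving out loci that share bases with another was added after seeing the data. Python 3.11.15, numpy 2.4.6, pandas 2.3.3 and matplotlib 3.10.9 were used.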

Additional observations from a re-analysis of the deposited data

Results flagged for a closer look

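The Hba-a1 entry at 32196489 on chromosome 11 passed the call rule in opposite directions in the 2 pairs of libraries: its difference, inhibited minus efficient, was -1.47 on the log2(FPKM + 1) scale with docetaxel and 2.46 without. The difference between the pairs was not tested, since each value rests on 1 library. The other Hba-a1 entry, at 32183672, had the same order of signs (-2.33 and 1.27), with the untreated value not past the rule.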

How the results depend on the processing

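No paired analysis was possible because each group was 1 library without a replicate number, and for the same reason no replicate could be left out. The count of 40 lower window loci was 20 with a minimum of 20 FPKM, 23 with loci above 0 in both libraries and 67 without the interval criterion. The count of 3 higher loci was 0 with a 3-fold threshold, 22 without the interval criterion and 5 after quantile normalization. All other settings gave 32 to 47 lower and 3 or 4 higher. The median difference of -0.26 became -0.0948 when libraries were scaled to the median of the windows, where the median over all loci moved by 0.15, and it stayed below 0 in every setting run. Without loci that share bases with another, 32 were lower and 3 higher. Of the 41 named called loci 27 kept their call in every setting that gave a value, and 14 lost it in at least 1. The 3-fold threshold took 11 (Igfbp3, Rbm4, Rbm14, Ogdh, the Hba-a1 entry at 32196489, Dock2, Pfkp, Sepp1, Dpp3, Cd248 and Mmp12). A pseudocount of 5 took 6, window scaling 5 and quantile normalization 3. All 14 were among the 26 named loci called above 0 in both libraries. The 15 called against a listed 0 got no value when only loci above 0 in both were kept. That setting could therefore not take their call, and the 27 are no measure of how firm those 15 are. Deposited intervals cover neither differences between animals nor between libraries of 1 tumour, and at 5 to 10 FPKM their median half-widths of 54.1% efficient and 70.8% inhibited limit which differences were detectable.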
